A study of Mus musculus with 6 samples.

Results

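The genes described here are Myf5, Myod1, Myog and Myf6, the 4 myogenic regulatory factors, measured in the mouse myoblast line C2C12. Every non-control probe whose RefSeq accession belongs to one of the 4 genes was taken, which gave 4 probes of the 39429 on the array, 1 per gene, and 4 of the 22056 genes tested. Of these 22056 entries, counted here as genes, 15366 had a gene name and 6690 had none. The probes of Myf5, Myod1 and Myog were each printed in 10 spots and that of Myf6 in 1 spot. Both groups were C2C12 cells grown with 10% fetal bovine serum and transfected at 70 to 80% confluence, with "20 um" of siRNA in the labels' spelling: 3 arrays of cells that received control oligos (siRNA-NC) and 3 of cells in which the lncRNA Meg3 was targeted (siRNA-MEG3), each array labelled a biological replicate. The groups are 1 cell line each with no untransfected cells, 1 siRNA label per group, and an unstated time between transfection and extraction. The comparison asks how the factors' transcripts stood in cells given the siRNA against Meg3.

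The myogenic regulatory factors are basic helix-loop-helix transcription factors. Each pairs with an E protein, binds the E-box sequence in the control regions of muscle genes, and is held back by Id proteins, which take up E proteins but lack a DNA-binding domain. Myf5 and Myod1 set the myoblast identity of a cell and are made in dividing myoblasts, Myog drives the exit into differentiation, and Myf6, also called Mrf4, is best known from late differentiation and mature fibres. In C2C12 cells the change from myoblast to myotube, usually brought on by serum withdrawal, is accompanied by a strong rise of Myog and of the muscle structural genes.

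The arrays did not behave as 3 separate samples per group. Over 263 probes that are printed 10 times, siRNA-NC arrays 1 and 3 differed by a variance 0.643 times that of spot noise, and siRNA-MEG3 arrays 1 and 3 by 0.0318 times, with spot-by-spot deviations correlated at 0.99. Each such pair differed by less than the sampling noise so the pairs entered as means, and a group then held 2 samples. Array 2 of siRNA-NC stood apart from array 1 by 55.9 times spot noise, and siRNA-MEG3 array 2 from array 1 of its group by 1.97 times. The median absolute differences over all genes were 0.4 for siRNA-NC and 0.13 for siRNA-MEG3 on the log2 scale. The 2 siRNA-MEG3 samples thus differed by little more than spot noise. All siRNA-NC arrays shared 1 scan time and the siRNA-MEG3 arrays had 2 others, so scan time and group cannot be told apart, and the p-values measure only the spread between these samples.

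Of Meg3, the targeted RNA, 3 probes were on the array. No probe was well above background on the 3 siRNA-MEG3 arrays, and of the control arrays only array 2 had 1 probe above it, so the knockdown could not be checked in these files. As a check of the cell type, 10 of 11 myoblast markers, among them Vim, Ncam1, Vcam1 and the laminin receptor subunit Itga7, were well above background on all 6 arrays. Of the markers of other cell types that were on the array, the number well above background on all 6 arrays was 5 of 7 for adipocytes, 4 of 5 for immune cells, 4 of 5 for neurons, 2 of 5 each for osteoblasts, chondrocytes and endothelium, and 1 of 5 for epithelium. Epcam, Cdh1 and Krt18 of epithelium and Col2a1, Comp and Matn1 of cartilage were not above background on any array, while Krt14, Sox9 and Acan were so on all 6, so these lists do not separate the line from other cell types on this array.

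Myog was the factor called higher. Its transcript stood 10.5-fold higher with siRNA-MEG3, while Myod1 and Myf6 were measured 4.64-fold and 2.16-fold higher and Myf5 7.7-fold lower, 3 differences that did not pass the test. In bulk RNA, a change in the number of cells that make a transcript and a change in the amount per cell cannot be told apart. On every array the 4 probes were well above background, and for each factor the values of the 3 siRNA-MEG3 arrays did not overlap those of the 3 siRNA-NC arrays. That separation was common: the arrays of the groups did not overlap for 25.3% of all genes in the higher direction and 21.9% in the lower. Of all genes tested, 1.38% were called at an adjusted p under 0.05 by limma with Benjamini-Hochberg adjustment, 0.957% as higher and 0.422% as lower, so 1 of 4 factors called stands against that background.

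**Figure D1:**
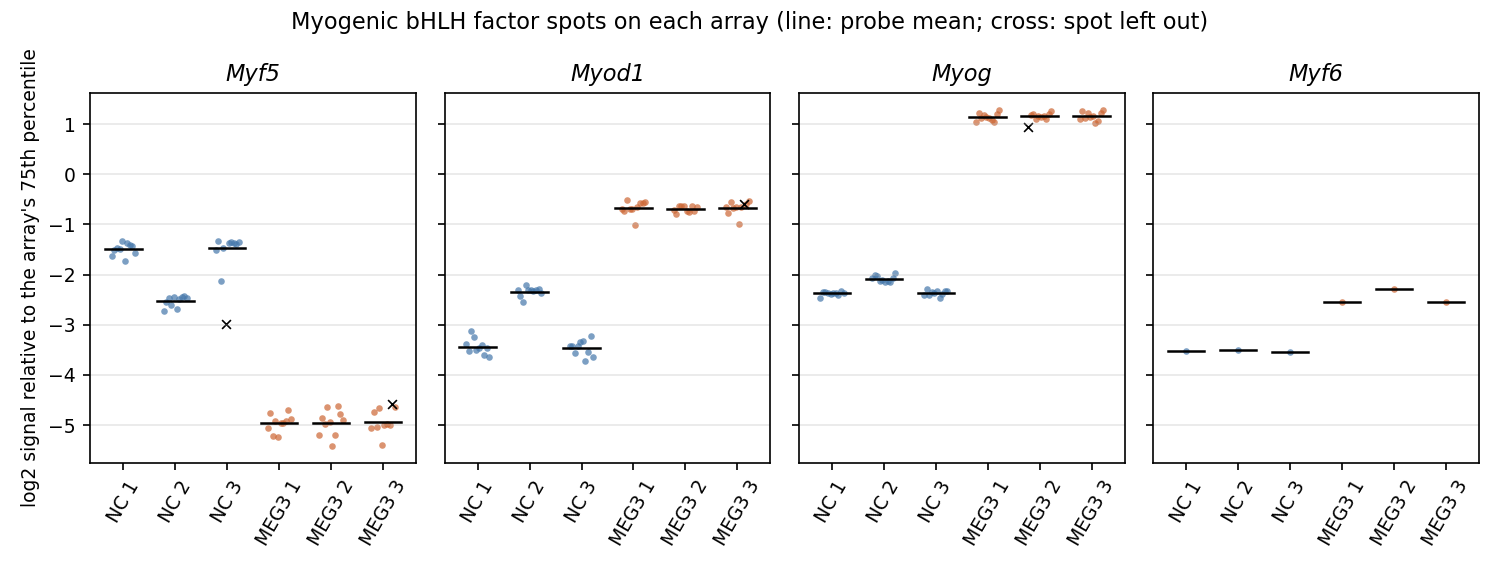
Each point is 1 spot of a factor's probe, with its log2 signal relative to the 75th percentile of its array on the vertical axis and the 6 arrays on the horizontal axis; lines are the probe's mean and crosses are spots marked as outliers and left out. The Myog spots lie between -2.47 and -1.98 on the siRNA-NC arrays and between 1.03 and 1.27 on the siRNA-MEG3 arrays, while siRNA-NC array 2 sits apart from arrays 1 and 3 for Myf5 and Myod1.

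Myf5, the first of the factors made in the embryo, had processed signals of 457, 394 and 443 on siRNA-NC arrays 1, 2 and 3. On the siRNA-MEG3 arrays its signals were 41.9, 43.0 and 40.0. Set against the array's own 75th percentile, which was higher on siRNA-NC array 2 (2279) than on the 5 others (1232 to 1334), the Myf5 values were 35.5%, 17.3% and 36% in the controls against 3.20%, 3.23% and 3.24% on the siRNA-MEG3 arrays. The siRNA-MEG3 values lay close together, and on this scale control array 2 was lower than the other controls.

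The log2 fold change of Myf5 was -2.95 ± 0.41 (SE, n = 2 samples per group), with a 95% interval from -4.07 to -1.83 and an adjusted p of 0.0702 by limma. Only 53 of the genes tested, 0.24%, had a log2 fold change as low. The 2 siRNA-NC samples differed by 2.07-fold, a gap matched or passed by 5.79% of genes, and the 2 siRNA-MEG3 samples by 0.0027 on the log2 scale. With siRNA-NC array 2 as the sole control sample the log2 fold change was -2.42, and with that array left out it was -3.47. The size also depended on how background was removed: it was -1.83 with normexp correction of the median pixel signals after spots under a bright speck were left out, and -0.40 with those spots in, although 0 of the 31 spots of the factors lay under the speck.

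The RefSeq promoter table holds the Myf5 and Myog genes but gives no entry for Myod1 and Myf6. The 250 bases before the annotated start are shown for the factor that was measured lower and for the one called higher, in build GRCm38.p6 and 5′ to 3′ on the gene's own strand. Capitals mark matches to the E-box CANNTG, the MEF3 site TCAGGTT and the MEF2 core CTANNNNTA, each searched on both strands. CTANNNNTA was chosen after the sequences had been looked at. It is called the MEF2 core here but allows any base at each N, so a match need not be a MEF2 site. The Myf5 window is chr10:107486135-107486384, minus strand, and the Myog window is chr1:134289754-134290003, plus strand.
Myf5: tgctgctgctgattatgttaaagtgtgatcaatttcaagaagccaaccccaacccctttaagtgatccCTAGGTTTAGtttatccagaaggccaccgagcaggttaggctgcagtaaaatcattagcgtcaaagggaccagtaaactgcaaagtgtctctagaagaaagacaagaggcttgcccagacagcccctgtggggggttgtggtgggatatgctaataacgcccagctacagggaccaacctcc
Myog: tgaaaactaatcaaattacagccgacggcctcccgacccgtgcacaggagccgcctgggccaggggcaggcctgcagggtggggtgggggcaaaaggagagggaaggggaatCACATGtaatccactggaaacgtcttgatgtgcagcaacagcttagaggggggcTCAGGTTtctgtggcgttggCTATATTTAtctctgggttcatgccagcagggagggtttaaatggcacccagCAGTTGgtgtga
The Myog window held E-boxes CACATG at -138 and CAGTTG at -12, counted from the start, a MEF3 site at -84 and the MEF2 core CTATATTTA at -64. Binding sites of these kinds close to the start are the textbook description of this promoter. The Myf5 window held no CANNTG and no TCAGGTT, and CTANNNNTA matched it at -182 and, on the other strand, at -181. The match at -182 is CTAGGTTTA, with GGTT at the N positions. Of 32851 promoter windows of this length, 66.2% held CANNTG, 19% CTANNNNTA and 3.49% TCAGGTT. No array value here measures binding, and a match is a description of letters.

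Myod1, which can turn fibroblasts into myoblasts, had processed signals of 119, 450 and 112 on the siRNA-NC arrays. On the siRNA-MEG3 arrays they were 822, 826 and 771. Relative to each array's 75th percentile the values were 9.21%, 19.7% and 9.05% against 62.9%, 61.9% and 62.4%. All siRNA-MEG3 values were above all controls, and siRNA-NC array 2 was again the control that lay nearest to them.

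The difference for Myod1 was 2.21 ± 0.43 on the log2 scale (SE, n = 2 samples per group; 95% interval 1.04 to 3.39; adjusted p = 0.12 by limma), and 241 genes, 1.09%, had a log2 fold change as high. The siRNA-NC samples were 2.16-fold apart, a gap as large as that in 4.8% of genes, and the siRNA-MEG3 samples differed by 0.017 on the log2 scale. On siRNA-NC array 2, Myod1 lay 40.2% of the log2 distance from the other control sample towards the siRNA-MEG3 mean, and Myf5 30.2%. For Myog that position was 8.17% and for Myf6 3.24%. Against siRNA-NC array 2 alone the log2 fold change of Myod1 was 1.66, and with that array left out it was 2.77.

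Myog, or myogenin, whose product is needed for myoblasts to form fibres, had processed signals of 248, 537 and 239 on the siRNA-NC arrays. With siRNA-MEG3 they were 2879, 2999 and 2760. As a share of the 75th percentile the control values were 19.2%, 23.6% and 19.4%, and the siRNA-MEG3 values 220%, 225% and 223%. Both groups were tight on this scale, and the SD among the 10 spots of an array was 0.041 to 0.083 in log2 units.

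The log2 fold change of Myog was 3.39 ± 0.22 (SE, n = 2 samples per group; 95% interval 2.79 to 3.99), with an adjusted p of 0.0246 by limma, and both siRNA-MEG3 samples were above both siRNA-NC samples. It ranked 101st among the higher genes, with 0.458% of genes at or beyond it. The 2 siRNA-NC samples differed by 0.29 and the 2 siRNA-MEG3 samples by 0.020 on the log2 scale. The adjusted p was 0.119 without siRNA-NC array 2 and 0.142 with that array as the sole control sample, fits in which 1 sample is taken to vary like the other group, and 0.0688 with no filter on dim probes. Under normexp correction with the speck spots in, it was 0.61, and with them left out 0.0122.

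Myf6 had processed signals of 111, 200.3 and 105 on the siRNA-NC arrays and of 224, 274 and 211 on the siRNA-MEG3 arrays. These were 8.63%, 8.79% and 8.51% of the 75th percentile against 17.1%, 20.5% and 17%. The controls agreed closely, array 2 included, and siRNA-MEG3 array 2 was the highest of the 6. The log2 fold change was 1.11 ± 0.22 (SE, n = 2 samples per group; 95% interval 0.52 to 1.70; adjusted p = 0.121 by limma), and 3.98% of genes were at or above it. With 1 spot per array Myf6 has no spot spread of its own.

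Parts of the siRNA-MEG3 arrays were dark in blocks, over 15.3%, 6.49% and 12.5% of arrays 1 to 3. Without the spots in these blocks the log2 fold changes were -2.91 for Myf5, 2.23 for Myod1, 3.37 for Myog and 1.11 for Myf6, with Myog the one that passed.

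**Figure D2:**
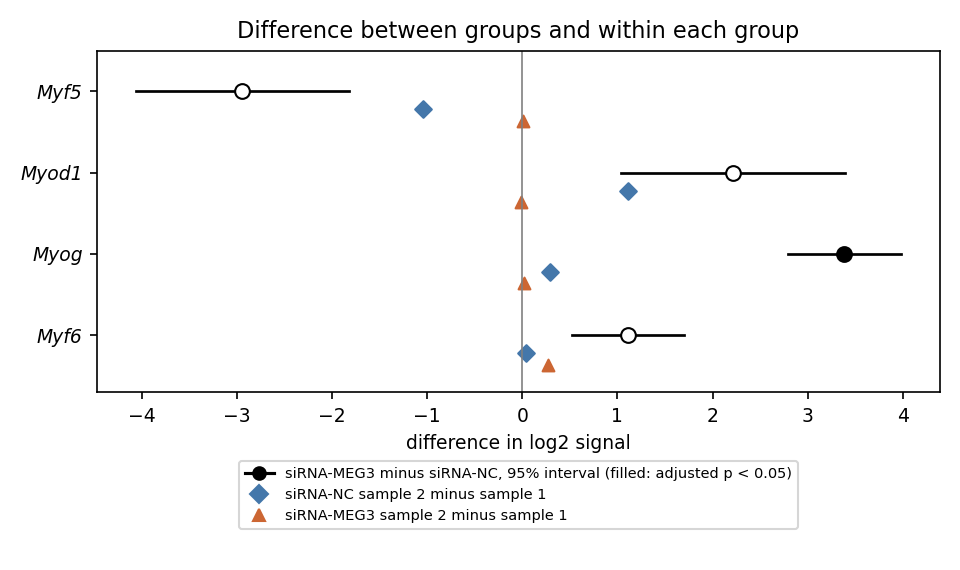
For each factor the circle is the difference in log2 signal between siRNA-MEG3 and siRNA-NC with its 95% interval, filled where the adjusted p is under 0.05; diamonds and triangles are the differences between the 2 samples of siRNA-NC and of siRNA-MEG3. Myog alone is filled, and the control samples differ by 1.05 for Myf5 and 1.11 for Myod1.

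In the authors' deposited table of log2 values, Myf5 read 9.10, 8.01 and 9.12 in the controls and 5.74, 5.71 and 5.74 on the siRNA-MEG3 arrays. In the authors' deposited table Myog read 8.29, 8.41 and 8.27 against 11.6, 11.7 and 11.7. Myod1 read 7.27, 8.18 and 7.22 against 9.85, 9.82 and 9.83 there, and Myf6 7.19, 7.18 and 7.14 against 8.01, 8.27 and 7.99 in the authors' deposited table. The same control array stands apart for the same factors in those values.

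The factors' dimer partners showed no call. Of all genes 1.38% were called, a share at which so short a list can be expected to hold none. Of 7 E protein and Id genes on the array 6 were measured above the filter, none was called higher or lower, and their median log2 fold change was 0.39 against -0.02 over all genes. Id2 and Id1, which hold E proteins back, were at 0.62 ± 0.20 and 0.40 ± 0.20 (SE, adjusted p = 0.227 and 0.393 by limma). The E protein gene Tcf12 was at 0.37 ± 0.20 and Tcf4 at 0.57 ± 0.42 (SE).

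The regulators upstream of the factors likewise gave no call: 12 of 19 were measured, with a median log2 fold change of 0.07. With 1.38% of all genes called, no call among 12 is near the share over all genes. Six4, a homeodomain factor that acts on the Myog gene, was at 0.53 ± 0.21 (SE). Eya2, a cofactor of such homeodomain proteins, had processed signals of 19.2, 21.0 and 15.3 on the siRNA-NC arrays and was not well above background on the 3 siRNA-MEG3 arrays, so no fold is given (adjusted p = 0.116 by limma). Gli3, a transcription factor of the hedgehog pathway, was at 0.43 ± 0.20 (SE). Meox1, Meox2, Msc, Tcf21, Gli1 and Gli2 were among those that did not pass the filter on dim probes.

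Among 32 inhibitors of the factors' activity, 29 were measured, 1 was called higher and none lower, with a median log2 fold change of 0.14. Over all genes 0.957% were called higher and 0.422% lower, so 1 call among 29 says little about the list. The gene called was Hey1, a Notch target that encodes a bHLH repressor, with processed signals of 48.7, 72.6 and 45.5 against 195, 197 and 193 and a log2 fold change of 2.12 ± 0.21 (SE, adjusted p = 0.0425 by limma). Hey1 passed in 21 of 28 alternative settings, with log2 fold changes from 1.53 to 2.33. Fos was at 1.71 ± 0.22, the related Heyl at 1.56 ± 0.24 and Bhlhe40 at 0.97 ± 0.20, and Notch1, the receptor upstream of the Hey genes, at -1.34 ± 0.35 (SE). These 4 did not pass the test. With normexp correction and the speck spots left out, Fos was at 1.31, Heyl at 0.995, Bhlhe40 at 0.933 and Notch1 at -0.371. Over the alternatives Notch1 ran from -1.76 to 1.07, so its sign was not the same in all of them.

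None of the 27 cofactors measured, of 28 listed, was called, and their median log2 fold change was 0.04. With 1.38% of all genes called, a list of this length can be expected to hold none. Srf, the serum response factor that works on muscle actin genes, was at 1.22 ± 0.21 (SE, adjusted p = 0.0971 by limma) by its brightest probe and at 0.21 by its other probe. Mef2a, a MADS-box partner of the factors, was at -0.87 ± 0.20, the histone acetyltransferase Crebbp at -0.53 ± 0.20 and the methyltransferase Setd7 at 0.48 ± 0.21 (SE). Mef2c did not pass the filter on dim probes.

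The known target genes of the factors held 22 calls. Of 50 listed, 48 were measured, 22 were called higher against a background of 0.957% of all genes, none was called lower, and 46 had a positive log2 fold change. The median was 2.49 against -0.02 over all genes. Some of the 48 passed the filter through the siRNA-MEG3 arrays, where they were high. Among probes well above background on all 6 arrays, 41 targets were measured, 21 were called higher and the median was 1.5. Of the 22 called, Vgll2, Rbm24, Myh8, Cav3, Klhl41 and Actc1 are not among those 41. The 21 therefore include targets that were not among the 22, in a separate fit that tested 18640 genes. The list was drawn up with earlier results of these data known, so the count describes these arrays and is no independent evidence of direction.

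The 8 targets with the smallest p shared an adjusted p of 0.0206 by limma. Myl1, a fast myosin light chain, had processed signals of 445, 467 and 397 with siRNA-NC against 33110, 30450 and 30760, a log2 fold change of 6.52 ± 0.31 (SE). Tnnt3, fast troponin T, had 142, 234 and 140.0 against 2116, 2125 and 2059, a log2 fold change of 3.92 ± 0.20 (SE). Ryr1, the calcium release channel, was at 3.97 ± 0.20, and Casq2, which stores calcium in the same compartment, at 5.70 ± 0.28 (SE). Vgll2, a cofactor of TEAD proteins, was not well above background on any siRNA-NC array and was at least 193-fold higher against the lowest signals measured there. A bound of this kind sets the siRNA-MEG3 mean against the lowest signal, on each control array, among probes well above background, and it holds for the processed signals only. With normexp correction and the speck spots left out, the log2 fold change of Vgll2 was 5.16, which is below that bound, that of Casq2 4.08 and that of Ryr1 3.23, while Myl1 was at 6.44 and Tnnt3 at 3.71.

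The 3 others of these 8 were Rbm24, an RNA-binding splicing factor, at 4.83 ± 0.22, Myh8, perinatal myosin heavy chain, at 5.02 ± 0.24, and Cav3, muscle caveolin, at 4.55 ± 0.22 (SE). They were well above background on 2, 2 and 1 of the 3 siRNA-NC arrays, and under the same normexp setting they were at 2.85, 3.02 and 2.55. Mymk, the myoblast fusion protein, was at 2.85 ± 0.34 (adjusted p = 0.0539), Chrnd, an acetylcholine receptor subunit, at 3.17 ± 0.41, Jsrp1 at 1.80 ± 0.23 and Dll1 at 1.47 ± 0.20 (SE), and these 4 did not pass the limma test. The number of targets called higher was 0 without siRNA-NC array 2 and 0 with it as the sole control sample, 0 with no filter on dim probes and 0 under normexp with the speck spots in, 29 without siRNA-MEG3 array 2, and 38 with all 6 arrays as samples, and the median lay between 1.5 and 2.68 over all alternatives run.

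**Figure D3:**
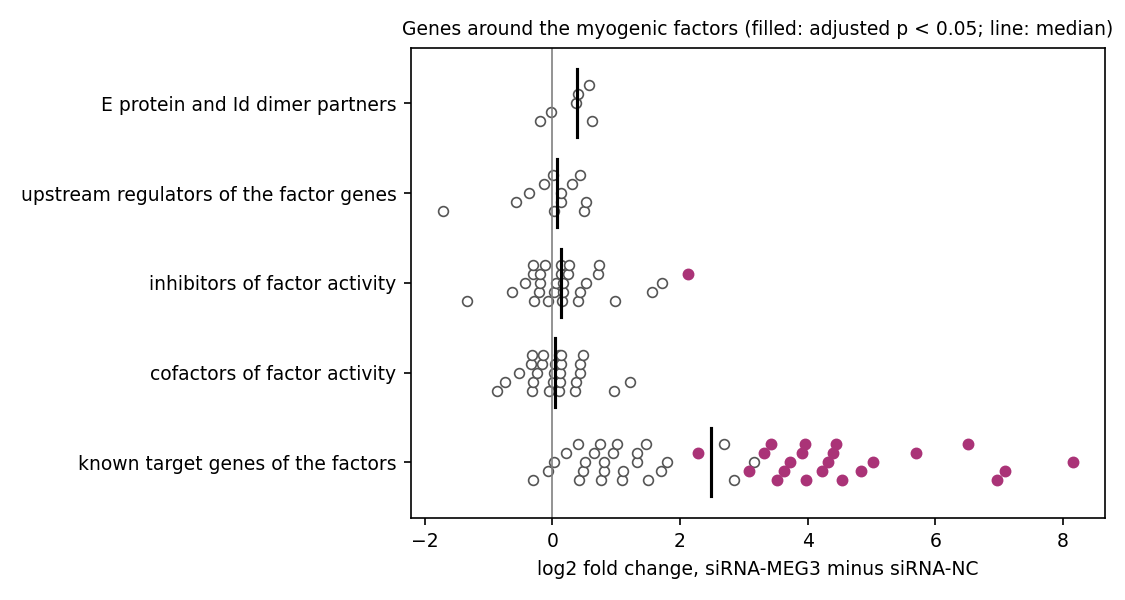
Each circle is 1 measured gene of a list, with its log2 fold change on the horizontal axis, filled where the adjusted p is under 0.05; the vertical line is the list's median. The 22 filled circles among the known targets lie at 2.29 and above, the inhibitors have 1 at 2.12, and the other 3 lists have none; the circle at -1.72 is Eya2, which was not above background on the siRNA-MEG3 arrays.

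The profile of each factor over the 6 arrays was compared with 15249 named genes by the root mean square difference of log2 values, each gene centred on its own mean. Nearest to Myog were Tnni1, slow troponin I (0.056), Map2, a microtubule protein best known from neurons (0.081), Klhl41, a sarcomere-associated kelch protein (0.083), Tnnc1, slow troponin C (0.085), and Prl2c5 (0.091). All 5 were called higher, with log2 fold changes from 3.31 to 3.52. With normexp correction and the speck spots left out, Tnni1 was at 2.42 and Klhl41 at 2.05. Klhl41 was well above background on 2 siRNA-NC arrays. With 6 arrays that hold 2 distinct samples per group, these profiles are dominated by the step between the groups.

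Of the genes nearest to Myf5, Olfr221 (0.11), Wdr19 (0.12) and Igfbp7 (0.15) did not pass the test, while Prg4, which encodes lubricin, and the tyrosylprotein sulfotransferase Tpst1 were called lower at -2.99 ± 0.30 and -2.98 ± 0.27 (SE, adjusted p = 0.0425 and 0.0357 by limma). Nearest to Myod1 was Cd36, a fatty acid transporter (0.08), followed by Nxf7, Adgrl3, Klf5 and Man1a at 0.17 to 0.21, and none of these was called. Nearest to Myf6 were Sytl5 (0.054), Lrrc3 and Slc2a6 (0.074 each), H2al1n (0.076) and Lrr1 (0.081), none of them called. Cd36, Man1a and Lrrc3 were well above background on 1 siRNA-NC array and H2al1n on 2. These genes passed the filter through the siRNA-MEG3 arrays, where they were higher. Olfr221 was well above background on 0 siRNA-MEG3 arrays and passed the filter through the siRNA-NC arrays, where it was higher. With normexp correction and the speck spots left out, Olfr221 was at -0.39. Within 0.25 of Myf6 lay 790 genes, against 26 for Myog, 10 for Myod1 and 9 for Myf5, so the Myf6 profile is one that many genes share.

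The promoter windows of Tnni1 and Klhl41, 2 of these 5 genes, are shown because they hold both E-boxes and the MEF2 core, as the Myog window does. The windows of Map2, Tnnc1 and Prl2c5 held no match to the MEF2 core and are not printed, nor is a further Tnni1 window that overlaps the one shown. Those of Map2 and Prl2c5 held no E-box either, and that of Tnnc1 held 2. The Tnni1 window is chr1:135799171-135799420 and the Klhl41 window chr2:69669870-69670119, both on the plus strand of GRCm38.p6. Capitals mark the same motifs, also where a match overlaps another.
Tnni1: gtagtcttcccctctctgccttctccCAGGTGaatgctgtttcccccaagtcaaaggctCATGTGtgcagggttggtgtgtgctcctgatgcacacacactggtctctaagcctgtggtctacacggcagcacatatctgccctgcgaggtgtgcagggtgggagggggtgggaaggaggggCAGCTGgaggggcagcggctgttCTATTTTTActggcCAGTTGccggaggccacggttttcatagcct
Klhl41: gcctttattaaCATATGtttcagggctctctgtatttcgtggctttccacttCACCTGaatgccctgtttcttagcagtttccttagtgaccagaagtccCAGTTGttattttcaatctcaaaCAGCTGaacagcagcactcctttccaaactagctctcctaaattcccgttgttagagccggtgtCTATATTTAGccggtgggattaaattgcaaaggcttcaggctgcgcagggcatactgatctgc
Tnni1 held E-boxes CAGGTG at -224, CATGTG at -191, CAGCTG at -68 and CAGTTG at -31, and the MEF2 core CTATTTTTA at -45. Klhl41 held E-boxes CATATG at -239, CACCTG at -198, CAGTTG at -150 and CAGCTG at -127, and CTATATTTA at -63, the same letters as in the Myog window at -64.

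Over the known targets, 36 genes had 42 windows, of which 85.7% held CANNTG, 40.5% CAGCTG and 35.7% CTANNNNTA, against 66.2%, 13% and 19% of all windows. TCAGGTT was in 1 of the 42 target windows (2.38%) against 3.49% of all windows, too few to give a direction. Within the list CAGCTG did not go with the call: it was in 6 of the 18 called genes with a window (33.3%) and in 9 of the 16 measured genes that did not pass (56.2%). These shares are descriptions of the letters before the annotated start, and a gene can have several windows.

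**Figure D4:**
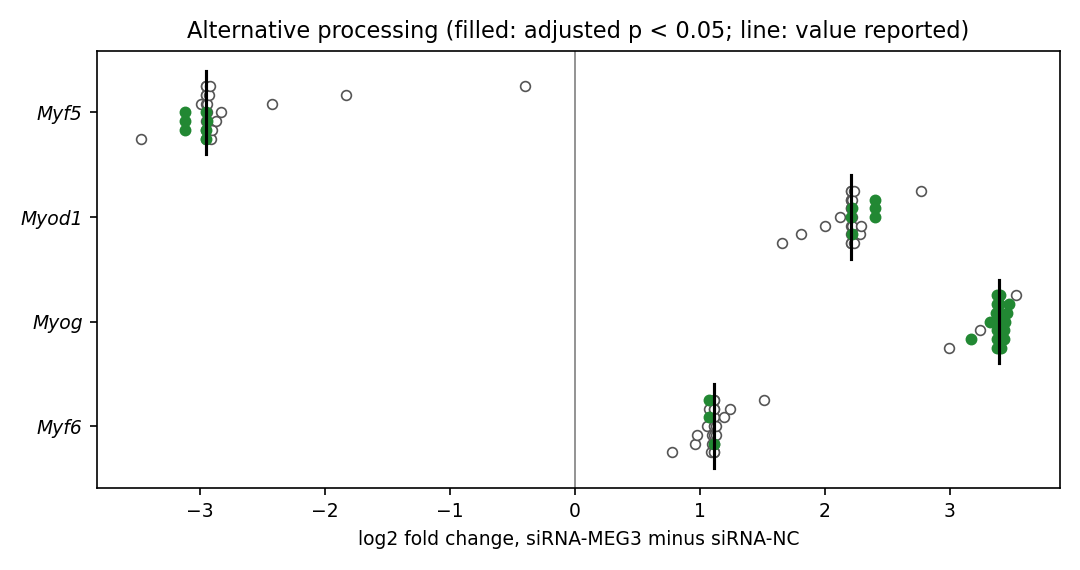
Each circle is the log2 fold change of a factor under 1 of 28 alternative settings, filled where the adjusted p is under 0.05, and the vertical line is the value reported. Settings that leave out array 1 or 3 of a group keep its near-identical partner, so the settings are not independent. Signs did not change in any setting; Myog passed in 24 of 28, Myf5 in 7, Myod1 in 6 and Myf6 in 3.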

How the data were processed

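RNA of 6 C2C12 samples was hybridised to single-colour Agilent arrays. Per the file headers, the deposited intensity of each spot is the processed signal of Agilent Feature Extraction 11.0.1.1, background-subtracted and detrended within its array. The authors' deposited table gives log2 values with a median of 8.11 in every column; its further normalisation is not stated in the sources read. The transcript identifiers of the probes are those of the array design, and gene names were matched to them from RefSeq. The promoter windows are in build GRCm38.p6.

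Signals were set to log2 minus each array's 75th percentile, spots of a probe averaged without outlier spots, near-identical arrays averaged, and probes kept that were well above background on all arrays of a group. The brightest kept probe stood for a gene. Groups were compared with limma 3.58.1 (R 4.3.3) and Benjamini-Hochberg adjustment at 0.05, 2-sided, with 2 residual degrees of freedom; the fit was tested on simulated data. Per array 62.8 to 75.2% of spots were well above background and none was saturated; the number of arrays limits the precision. Named are, of each list, the genes called (at most the 8 with the smallest p) and up to 4 that did not pass, by smallest p, and for each factor its 5 nearest profiles and its neighbours. The members and lists were chosen with earlier results of these data known. RefSeq tables gave gene names, promoters and gene order. Alternatives covered sample averaging, scaling, background, filters, probes and single arrays. Results on some genes of the lists are not reported here.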

Additional observations from a re-analysis of the deposited data

How the results depend on the processing

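Over 28 alternatives, 5 of them chosen after seeing the data, no factor changed sign; log2 fold changes ran from -3.47 to -0.40 for Myf5, 1.66 to 2.77 for Myod1, 2.99 to 3.53 for Myog and 0.78 to 1.51 for Myf6. The settings are not independent, since leaving out array 1 or 3 of a group keeps its near-identical partner. The count of genes called moved most. With all 6 arrays as samples it was 5701, and Myf5 (-3.12), Myod1 (2.40) and Myf6 (1.07) passed; with only the siRNA-MEG3 pair averaged it was 1891, with Myf5 at -3.12, Myod1 at 2.40 and Myf6 at 1.11 passing. With the siRNA-MEG3 arrays as 1 sample, 1323 genes were called, Myf5 (-2.95) and Myod1 (2.22) included. With siRNA-MEG3 array 2 as the sole sample of its group it was 1461, with Myf5 (-2.94) and Myod1 (2.21) passing. Under the stricter filter Myf5 passed at -2.95. These fits count more samples, test fewer genes or take a lone sample to vary like the other group.

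Myog lost its call under normexp (2.99; 0 genes called by limma, 781 at an unadjusted p under 0.05), without a filter (3.39; 0 genes, 4346 unadjusted) and with siRNA-NC array 2 as the sole control sample (3.24; 0 genes, 6799 unadjusted). Normexp without the speck spots called 189 genes, 112 higher and 77 lower, against 211 and 93 reported; it moved the median of all genes to 0.095, and normexp with them to 0.50. The cause of each change was not tested. Leaving out 1 array gave -3.47 to -2.94 for Myf5, 2.21 to 2.77 for Myod1, 3.38 to 3.53 for Myog, 0.976 to 1.13 for Myf6 and 0 to 2993 genes called; 0 was without siRNA-NC array 2 (7419 unadjusted) and 2993 without siRNA-MEG3 array 2.

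Deviations of same-numbered arrays of the groups had r = -0.034, -0.043 and -0.033. Arrays 1 and 3 of each group were near-identical, so these values cannot decide whether the arrays were paired. With the replicate number as a block, 6 arrays gave 2690 genes and Myf5 at -3.12, Myod1 at 2.40 and Myf6 at 1.07, all 3 passing, and 4 samples gave 152 genes, with Myog passing (adjusted p = 0.0424) and Myf5 (0.0711), Myod1 (0.112) and Myf6 (0.249) not.

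Signal limits Meg3 itself, and the targets whose controls lay near background.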

Other observations

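None of the measured genes beside the factors was called. Myf5 and Myf6 are neighbours in the reference gene order, and Myf5 was at -2.95 ± 0.41 and Myf6 at 1.11 ± 0.22 on the log2 scale (SE). Lin7a, a scaffold protein gene on the other side of Myf5, was at 0.04 ± 0.32 (SE). Near Myod1, Otog, which encodes a protein of the inner ear, was at 1.39 ± 0.21 (SE, adjusted p = 0.0758 by limma) and Sergef at -0.30 ± 0.22 (SE), while Kcnc1 did not pass the filter on dim probes. Beside Myog, Ppfia4 was at 0.09 ± 0.67 (SE). Ptprq, near Myf6, did not pass the filter either, and no probe here was named for Myoparr, the long non-coding RNA gene beside Myog.

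Of the 5 neuron markers listed, 4 were measured and 2 were called higher, against 0.957% of all genes. They were Map2 at 3.35 ± 0.22 and Tubb3 at 1.89 ± 0.21 on the log2 scale (SE, limma). Tubb3 was close to the threshold (adjusted p = 0.0493 by limma) and passed in 19 of 28 alternative settings, Map2 in 24. Map2 is among the nearest profiles to Myog. Snap25 was at 76.8% of the 75th percentile with siRNA-NC and 21.8% with siRNA-MEG3 and did not pass the test, and Syt1 was well above background on 1 array. The summed level of the 5 ran from 76.9% to 103% of the 75th percentile on the siRNA-NC arrays and from 80.8% to 86.5% on the siRNA-MEG3 arrays. Snap25 was the largest term of that sum on the siRNA-NC arrays and went the other way from Map2 and Tubb3, so the sum does not show the level of the list. Their part in the results for Myog was not tested.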
